A study of Mus musculus with 10 samples.

Results

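The genes described here are 8 genes for adipokines, proteins that fat tissue releases into the blood. They were *Cfd*, *Adipoq*, *Lep*, *Retn*, *Rbp4*, *Rarres2*, *Apln* and *Nampt*, chosen by name out of 34797 gene names on a mouse array, by a rule that uses no measured value, though earlier results of these data were known. Of these genes, 7 have 1 probe and *Retn* has 2, which makes 9 probes. All 9 probes were well above background in both dyes on all 10 arrays, and none of their spots was saturated.

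The arrays measured RNA of epididymal white adipose tissue (WAT), the fat pad beside the epididymis, from 10 adult male mice of a single group, 1 array each. The strain is labelled C57BL/6J, and the protocol names C57BL/6JOlaHsd. All 10 mice were fed a low fat diet for 3 weeks and then a high fat diet (HFD) for 12 weeks, were kept at 29°C throughout, and were injected daily for 5 days with 100 mg/kg desferrioxamine (DFO), a compound that binds iron. They were killed on day 6 after 2 h without food, and are named here by their replicate number. Each mouse's RNA was labelled with Cy5. On every array it was read beside the same Cy3-labelled pool, which was mixed from all animals of a larger set of experiments, controls and these 10 mice among them. The pool is no control group, and control mice were not analysed here, so no effect of DFO or of the diet can be read from these values. The dyes were not swapped, so a difference between the dyes on a probe is part of its ratio, and ratios were not tested against 0. The 10 arrays lay on 5 slides, 2 on each. Median Cy5 signals of the arrays lay between 54.8 and 81.3, over backgrounds of 32 to 37.

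Adipocytes store fat, and the hormones they release tell other tissues how much is stored. Leptin acts in the brain to limit food intake. Adiponectin raises the insulin sensitivity of liver and muscle, and adipsin, the product of *Cfd*, is the protease that starts the amplification loop of the alternative complement pathway. Resistin in mice is made mainly by adipocytes, and retinol binding protein 4, chemerin (*Rarres2*) and apelin (*Apln*) are made by fat and by other organs. Nampt, also called visfatin, is an enzyme of NAD synthesis that nearly all cells make and that is also found outside cells.

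The array reads each gene through probes of 60 bases. On the mouse build mm9, which the array's annotation uses, the *Cfd* probe lies at chr10:79355302-79355361, the *Lep* probe at chr6:29023234-29023293, the *Nampt* probe at chr12:33535475-33535534 and, on the minus strand, the *Rbp4* probe at chr19:38191120-38191179 and the *Apln* probe at chrX:45378593-45378652. The *Rarres2* probe matches chr6:48519775-48519969 on the minus strand, a stretch of 195 bases, which is longer than the probe. The probes of *Adipoq* (chr16:23157576-23157635) and *Retn* probe 1 (chr8:3657312-3657371) lie in the coding part of their transcripts and are shown because they are the sequences that measured adiponectin and resistin. *Retn* probe 2 lies at chr8:3659757-3659816.

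*Adipoq* probe: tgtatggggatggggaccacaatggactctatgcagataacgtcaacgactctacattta
*Retn* probe 1: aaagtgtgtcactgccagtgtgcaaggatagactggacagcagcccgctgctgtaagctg

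Since most of these genes varied together between the mice, the 250 bases before their starts were searched as well, in the RefSeq sequences of build GRCm38.p6. The table held 7 of the 8 genes, without *Rarres2*. The motifs were TATAAA (the TATA box), CCAAT (a promoter box), both ACGTG and GCGTG (cores of the sites of hypoxia-inducible factors) and TTGCGCAA (a C/EBP site), on both strands. Shown are the windows of the gene with the widest spread (*Cfd*), the 2 best known adipocyte hormones (*Adipoq* and *Lep*) and *Nampt*, whose pattern went the other way. Capitals mark the matches, which do not overlap in these windows.

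*Cfd*, chr10:79890603-79890852, plus strand: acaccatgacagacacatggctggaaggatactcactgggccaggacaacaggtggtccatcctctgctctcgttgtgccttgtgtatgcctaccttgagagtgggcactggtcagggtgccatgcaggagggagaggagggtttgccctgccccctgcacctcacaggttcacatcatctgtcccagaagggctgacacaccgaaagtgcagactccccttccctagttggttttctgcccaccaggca
*Adipoq*, chr16:23146286-23146535, plus strand: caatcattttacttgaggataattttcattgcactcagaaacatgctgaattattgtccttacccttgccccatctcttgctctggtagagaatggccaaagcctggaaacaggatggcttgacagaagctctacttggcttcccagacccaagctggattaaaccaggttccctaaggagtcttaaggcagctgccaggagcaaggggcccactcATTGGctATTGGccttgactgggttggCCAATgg
*Lep*, chr6:29059971-29060220, plus strand: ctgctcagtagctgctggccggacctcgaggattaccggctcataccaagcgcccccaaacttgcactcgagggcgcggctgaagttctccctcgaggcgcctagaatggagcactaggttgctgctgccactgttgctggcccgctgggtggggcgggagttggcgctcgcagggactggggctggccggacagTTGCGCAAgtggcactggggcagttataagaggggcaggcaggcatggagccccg
*Nampt*, chr12:32820085-32820334, plus strand: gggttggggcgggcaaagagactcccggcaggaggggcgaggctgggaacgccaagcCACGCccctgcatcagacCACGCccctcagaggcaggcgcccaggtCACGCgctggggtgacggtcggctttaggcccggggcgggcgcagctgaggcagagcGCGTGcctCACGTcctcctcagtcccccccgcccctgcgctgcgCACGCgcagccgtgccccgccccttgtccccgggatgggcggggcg

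In the *Cfd* window none of these letter sequences was found, nor in those of *Retn* and *Apln*. The *Adipoq* window held CCAAT 3 times, close to the start, which 33.8% of all 32851 windows of this length hold at least once. The *Lep* window held TTGCGCAA, which 0.164% of all windows hold. *Nampt* had ACGTG 1 time and GCGTG 5 times, and the shares of all windows with these were 16.6% and 28.2%. *Rbp4* has 2 listed starts. The window of the first held CCAAT 1 time, and that of the second held TATAAA 1 time, which 12.4% of all windows hold, as well as ACGTG and GCGTG 1 time each. These are matches of letters only, and no binding was measured.

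*Cfd* had the widest spread of the 8 genes. Its log2 ratio to the pool was 0.15 in mouse 1, -0.70 in mouse 2, -0.08 in mouse 3, -4.68 in mouse 4, -4.12 in mouse 5, -3.36 in mouse 6, -4.69 in mouse 7, 0.83 in mouse 8, 1.08 in mouse 9 and 1.45 in mouse 10. These values put mice 4 to 7 far below the other 6, with a gap of 2.66 on the log2 scale between mouse 6 and mouse 2, and from mouse 7 to mouse 10 the ratio differed 70.4-fold. The mean was -1.41 ± 2.51 (SD, n = 10), and no mouse was near it. In the scanner's own signal, before normalization, Cy5 ran from 4468 in mouse 4 to 212452 in mouse 10. The Cy3 signal of the pool on the same spots ran only from 39168 to 74688, highest on the array of mouse 5 and lowest on that of mouse 10. It was 62352 to 74688 on the arrays of mice 4 to 7 and 39168 to 59370 on the others, so both dyes widened the gap in the ratio.

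*Adipoq*, which codes for adiponectin, parted the mice in the same way at a smaller scale. Its lowest log2 ratio was -2.78 (mouse 7), the median -0.05 and the highest 0.81 (mouse 9), with a mean of -0.68 ± 1.44 (SD, n = 10). Mice 4 to 7 lay between -2.78 and -1.63 and the other 6 between -0.08 and 0.81, so that the 2 sets of mice did not overlap. Cy5 signals ran from 17382 to 164617.

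*Lep*, the leptin gene, ran from -2.27 in mouse 7 over a median of 0.02 to 0.46 in mouse 3 (mean -0.60 ± 1.09, SD, n = 10). Its probe lies on each array 10 times, so the error within an array can be seen: the SD of the log2 ratio over these spots was 0.03 to 0.19. Mice 4, 5 and 7 were at -2.16, -1.77 and -2.27 and mouse 6 at -0.92, higher than the other 3 by more than this error. The 6 other mice lay between -0.06 and 0.46, and mice 1 and 9, at 0.18 and 0.17, cannot be ordered. Mice 8, 9 and 10, which had the 3 highest *Cfd* values, had *Lep* values of 0.31, 0.17 and -0.06.

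*Retn*, the resistin gene, was measured by 2 probes that gave nearly the same values: their log2 ratios differed by -0.23 to 0.12 in the 9 mice with a value. Probe 1 ran from -3.21 in mouse 7 over a median of -0.75 to 0.92 in mouse 10 (mean -1.16 ± 1.64, SD, n = 9), and probe 2 from -2.98 to 0.89. On probe 1, mice 4 to 7 were at -2.29 or lower and the others at -0.75 or higher. Mouse 9 has no value here because the scanner software marked both spots on its array as uneven. With these spots kept, mouse 9 would be the highest mouse at 1.02 and 1.14.

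*Rbp4*, which codes for the carrier of retinol in blood, ran from -3.56 in mouse 7 over a median of -0.23 to 0.91 in mouse 9 (mean -1.0 ± 1.71, SD, n = 10). Values of mice 4 to 7 lay between -3.56 and -1.88, and those of the other 6 between -0.31 and 0.91. *Rarres2*, the gene of the chemoattractant chemerin, had a narrower range, from -1.64 over a median of 0.13 to 0.55 (mean -0.33 ± 0.90, SD, n = 10). Here too mice 4 to 7 (-1.64 to -0.97) lay apart from the other 6 (0.01 to 0.55), and among these 6 the whole range was less than the gap of 0.98 below them.

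*Apln*, the apelin gene, had another order of mice. It was the dimmest of the 8 genes, with Cy5 signals of 202 to 857. Its log2 ratio ran from -1.36 in mouse 7 over a median of -0.87 to 0.23 in mouse 10 (mean -0.73 ± 0.62, SD, n = 10). Mice 4 to 7 lay between -1.36 and -1.11, but mouse 2, at -1.28, lay among them, and mice 1 and 3 followed at -0.64 and -0.52. Mice 8, 9 and 10 had the 3 highest values, as they had for *Cfd*.

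*Nampt* went the other way and varied least. Mice 4 to 7 were its 4 highest, between 0.41 and 0.77, and the other 5 mice with a value lay between 0.00 and 0.20 (median of all 0.20, mean 0.31 ± 0.26, SD, n = 9). Its Cy5 signals were 987 to 3969 on these arrays. The spot of mouse 2 was left out because it was marked as uneven, and both dyes were far brighter on it, at 15796 for Cy5 and 30924 for Cy3.

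**Figure D1:**
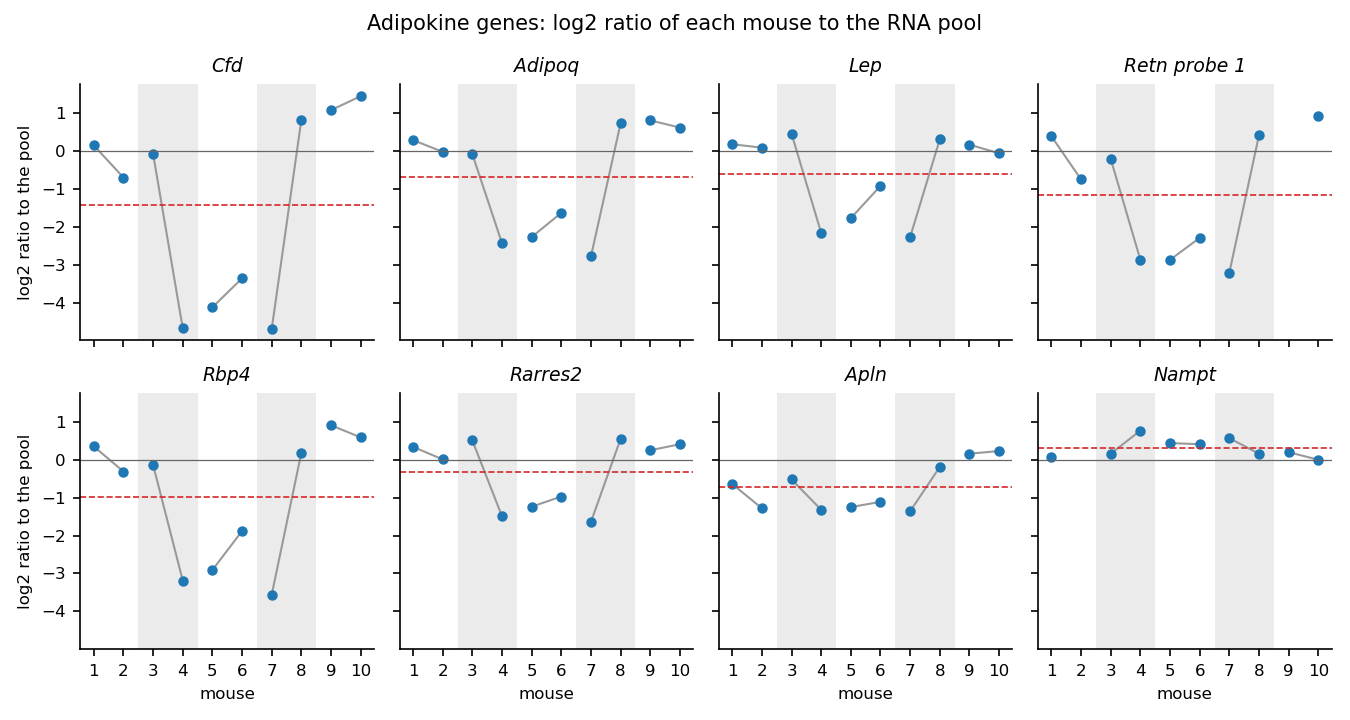
Log2 ratio of Cy5 (the mouse) to Cy3 (the pool) against the mouse number for the 8 genes, 1 probe each. Lines join the 2 mice of a slide, grey bands mark slides 2 and 4, the dashed line is the mean, and *Cfd* in mice 4 to 7 lies between -4.69 and -3.36 against -0.70 to 1.45 in the others, while *Nampt* is highest in these 4 mice.

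**Figure D2:**
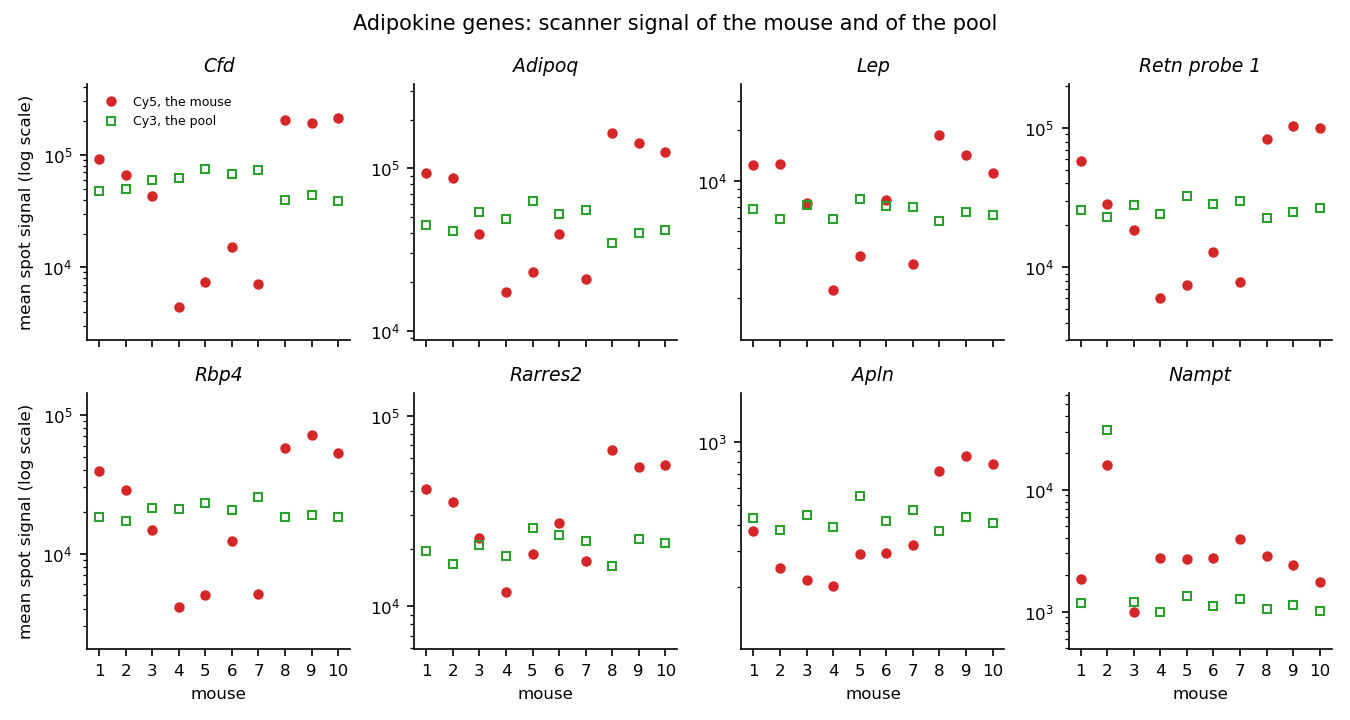
Mean spot signal before normalization on a log scale against the mouse number, with Cy5 (the mouse) as filled circles and Cy3 (the pool) as open squares. The pool's signal for *Cfd* stays between 39168 and 74688 while that of the mice runs from 4468 to 212452, and the uneven spot of *Nampt* in mouse 2 stands out in both dyes.

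Over all genes the mice fell into the same 2 sets. The first principal component of the log2 ratios of 27711 expressed probes held 75.1% of the variance, and its largest gap, 0.513 of its range, parted mice 4 to 7 from the other 6. The second held 8.8% and set mouse 2 apart. The labels give no difference between these mice. *Cfd*, *Adipoq*, *Lep*, *Retn*, *Rbp4* and *Rarres2*, 6 of the 8 genes, had mice 4 to 7 entirely below the others, which 21.3% of all 27802 expressed probes had. *Nampt* had them entirely above, as had 17.9% of the probes. These are descriptions with no test, since the sets of mice were read from the same arrays.

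The slides do not follow these sets, because slides 2 and 4 each hold a mouse of both. On slide 2, mouse 3 was above mouse 4 by 4.61 for *Cfd*, 2.35 for *Adipoq*, 2.62 for *Lep* and 3.05 for *Rbp4* on the log2 scale. On slide 4, mouse 8 was above mouse 7 by 5.52, 3.51, 2.58 and 3.75 for the same genes. On slides 1, 3 and 5, whose 2 mice belong to the same set, the *Cfd* values differed by 0.86, 0.76 and 0.37. With limma's moderated F test of the slide, 0% of 27799 expressed probes passed the threshold after Benjamini-Hochberg adjustment, none of the 9 adipokine probes among them (adjusted p from 0.697 to 0.798). Without adjustment 1142 probes had a p under 0.05, and none of these was an adipokine probe, the lowest p being 0.0717 for *Apln*. In this test the difference between the sets on slides 2 and 4 counts as spread within slides. With only 2 arrays on a slide, the lack of calls does not show that slides had no effect.

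The spread of Cy5, a different mouse on each array, was set against that of Cy3, the same RNA on each. Error from taking the tissue, isolating the RNA or labelling with Cy5 is not part of the Cy3 spread. A larger Cy5 variance can therefore hold such error as well as differences between mice, and these parts were not tested. By the Pitman-Morgan test for paired variances, 59.7% of all 25128 probes tested had a larger Cy5 variance at an adjusted p under 0.05, and 41 probes a smaller one. All 9 adipokine probes passed, so passing alone does not set them far apart from other genes. Their sizes were at the upper end, with a median SD of log2 Cy5 of 1.25 against 0.20 over all probes tested, while the median SD of log2 Cy3 was 0.09 against 0.08. *Retn* probe 2 had the smallest adjusted p of the 9 by the Pitman-Morgan test, 3.28e-08, and *Nampt* the largest, 0.000153.

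*Cfd* had a Cy5 SD of 2.20 against a Cy3 SD of 0.32, and its pool signal also varied more than that of any other of the 9 probes. Normalized log2 Cy3 of *Cfd* was 16.44 to 16.58 in mice 4 to 7 against 15.68 to 16.21 in the others. That of *Adipoq* was 16.16 to 16.21 against 15.69 to 15.94. *Retn* probe 2 parted them narrowly in Cy3, and on the other probes the sets overlapped. Where the pool parted the mice, its spread was no independent measure of error, and the cause was not tested. *Lep* had the highest ratio of the 2 SDs, 21.5, with 1.06 for the mice and 0.05 for the pool. *Nampt* had the lowest, 5.10, with 0.29 and 0.06, and 71.1% of all probes tested had a smaller Cy5 SD than it. *Apln* had 0.61 and 0.09, and *Rarres2* 0.84 and 0.13. With no normalization between arrays the calls of *Nampt* (adjusted p = 0.202) and *Rarres2* (0.0556) were lost by the same test, and with the scanner software's own processing those of *Rarres2* (0.377) and *Apln* (0.0902). Median centring of the arrays in place of loess also ended the call of *Nampt* (0.064). The calls of *Cfd*, *Adipoq*, *Lep*, *Retn* and *Rbp4* held under all 3 settings, but the sizes and their order did not. For *Lep* the log2 ratio of the SDs, 4.43, became 2.66 with median centring, 2.23 with no normalization between arrays and 1.4 with the scanner's processing. *Retn* was highest of the 8 genes with median centring (3.42) and with no normalization between arrays (2.48). With the scanner's processing *Cfd* was highest (1.85) and *Rarres2* lowest (0.56).

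**Figure D3:**
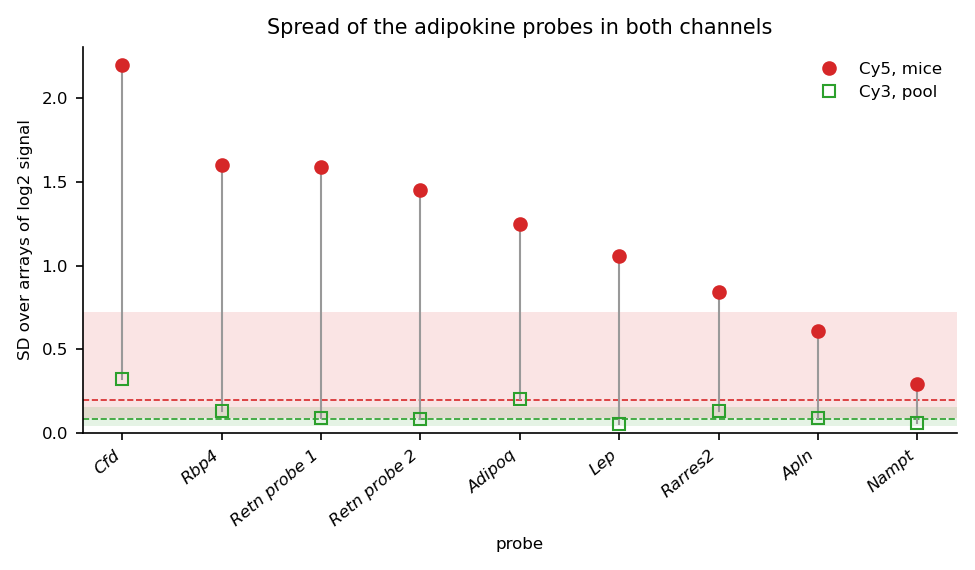
SD over the arrays of the log2 signal for each of the 9 probes, with Cy5 (mice) as filled circles and Cy3 (pool) as open squares. Shaded bands span the 5th to the 95th percentile over all probes tested and dashed lines are the medians (0.20 for Cy5, 0.08 for Cy3), so that the Cy5 SDs of *Cfd*, *Rbp4*, *Retn*, *Adipoq*, *Lep* and *Rarres2* lie above the band.

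Markers of other cells varied with the same mice, and in whole tissue a smaller number of cells of a type and less RNA per cell cannot be told apart. Of 7 adipocyte markers (*Plin1*, *Lipe*, *Fabp4*, *Cidec*, *Pnpla2*, *Slc2a4* and *Lpl*), all well expressed, 7 had mice 4 to 7 below the other 6. Their mean log2 ratio was -1.79 to -0.96 in mice 4 to 7 and -0.06 to 0.62 in the others. *Lpl* did so only barely, with an SD of 0.18, while *Slc2a4*, the insulin-regulated glucose transporter, had 1.47. By the Pitman-Morgan test 5 of these 7 markers varied more in Cy5 than in Cy3 (71.4%, against the 59.7% of all probes). *Fabp4* (SD 1.13, adjusted p = 0.823) and *Lpl* (adjusted p = 0.758) did not. All 7 macrophage markers were higher in mice 4 to 7 than in any other mouse, with means of 0.62 to 0.84 against -0.81 to -0.01. *Mrc1* (0.47 or higher against 0.45 or lower) and *Itgam* (0.20 or higher against 0.18 or lower) did so only barely. By the Pitman-Morgan test 6 of these 7 varied more in Cy5 than in Cy3 (85.7%), and *Itgam* did not (adjusted p = 0.181). Of all expressed probes, 21.3% had mice 4 to 7 entirely below the others and 17.9% entirely above. The sets of mice were read from the same arrays. The mean of 5 mesothelium markers was -1.40 to -0.85 against -0.55 to 0.52, that of 4 endothelium markers -0.61 to -0.35 against -0.09 to 0.25, and that of 3 T cell markers -0.48 to -0.37 against -0.10 to 0.53. Taken singly, 2 of the 5 mesothelium, 3 of the 4 endothelium and 2 of the 3 T cell markers had mice 4 to 7 entirely below. The other markers of these lists overlapped. The mean of 5 fibroblast and progenitor markers overlapped (-0.17 to 0.06 against -0.28 to 0.14), but its members differed. *Col1a1* was higher in mice 4 to 7 (0.47 to 0.66 against -1.05 to -0.01) and *Dpt* lower (-1.08 to -0.61 against -0.24 to 0.02). The rest overlapped. The mean of 3 erythroid genes was -2.06 to -1.34 against -0.95 to 0.51, and that of 2 B cell markers -0.82 to -0.47 against -0.38 to 0.32. All 3 erythroid genes and 1 of the 2 B cell markers had mice 4 to 7 entirely below. The epididymis genes *Lcn5*, *Crisp1* and *Defb19* were not above background on enough arrays. The 3 sperm genes above background had their highest mean in mouse 2, at -1.02 against -2.79 to -2.10 in the other mice. The part of cell type or blood in the adipokine values was not tested.

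**Figure D4:**
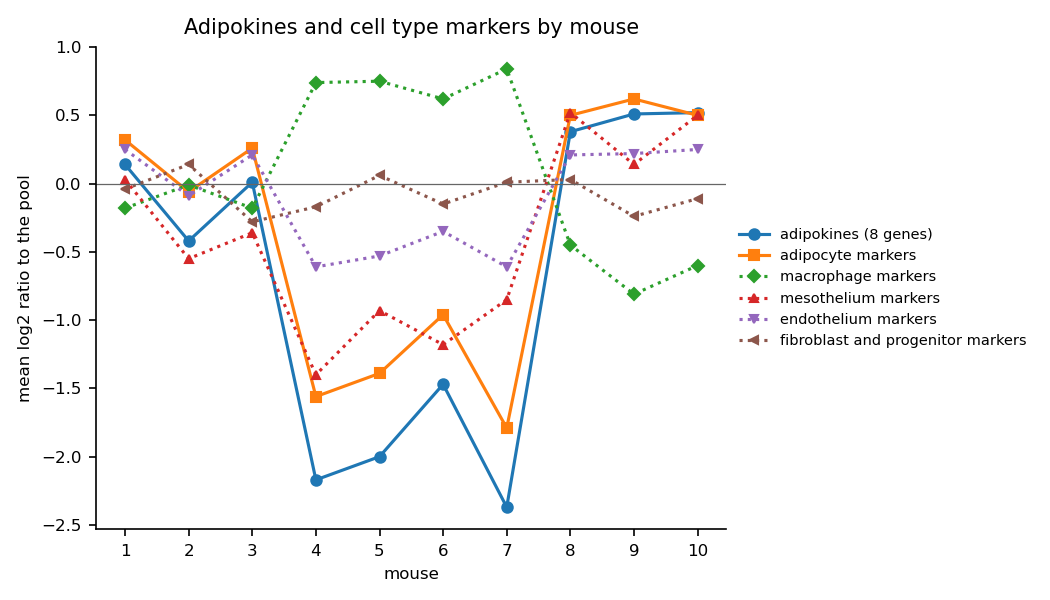
Mean log2 ratio to the pool per mouse of the 8 adipokine genes (*Retn* without mouse 9 and *Nampt* without mouse 2) and of 5 lists of cell type markers. The adipokines lie between -2.37 and -1.47 in mice 4 to 7 and between -0.42 and 0.52 in the others, and the macrophage markers run the other way.

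When the mean of the 7 adipocyte markers on the same array was taken off each gene's log2 ratio, the genes differed from each other in what was left. This measure was chosen after the values had been seen. *Rarres2* was then nearly level, with an SD over mice of 0.17 in place of 0.90, and *Lep* had 0.30 in place of 1.09, with mice 4 to 7 at -0.60 to 0.04 overlapping the others at -0.56 to 0.20. *Adipoq* had an SD of 0.49, and its mice 4 to 7 stayed lower, at -1.0 to -0.67 against -0.35 to 0.23. *Rbp4* and *Retn* had SDs of 0.76 and 0.72, and both were lower in mice 4 to 7 than in any other mouse. For *Cfd* these 4 mice were still between -3.12 and -2.41, against -0.64 to 0.95 in the other 6 (SD 1.56). *Nampt*, at 1.37 to 2.36 against -0.50 to -0.10, and *Apln*, at -0.16 to 0.43 against -1.23 to -0.27, were higher there than in the others by this measure. The SD of *Nampt* became 1.25 in place of 0.26, and that of *Apln* 0.55 in place of 0.62. The marker mean was itself -1.79 to -0.96 in mice 4 to 7 against -0.06 to 0.62. A gene that is level, or falls less than the markers, therefore comes out higher in these mice by construction. The adipocyte list includes *Slc2a4*, which tracked *Adipoq* closely, and *Lpl*, which hardly varied, so the size of these differences depends on the list. *Fabp4*, which like *Lpl* did not pass the variance test, is also part of the list.

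**Figure D5:**
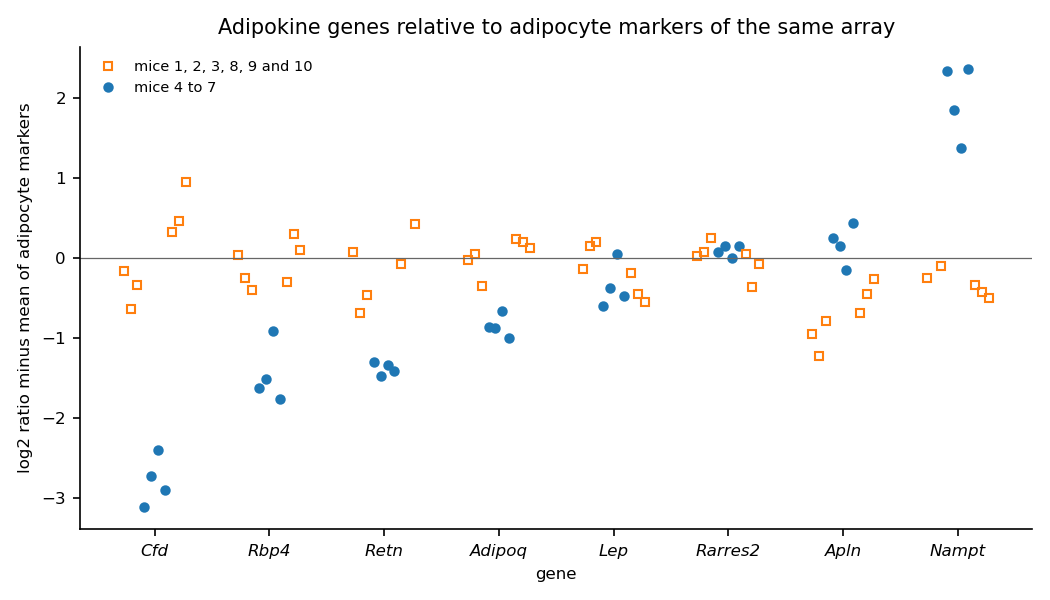
Log2 ratio to the pool of each gene minus the mean log2 ratio of 7 adipocyte markers on the same array, by gene, with mice 4 to 7 as filled circles and the other mice as open squares, each in order of mouse number from left to right. *Rarres2* lies between -0.37 and 0.24 in all 10 mice, *Cfd* is at -3.12 to -2.41 in mice 4 to 7, and *Nampt* is at 1.37 to 2.36 there.

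The 5 genes whose values over the mice were nearest to each adipokine were found among 20266 expressed genes, as the smallest mean absolute difference between log2 ratios after each gene's own mean was taken off. For *Cfd* they were *Car3*, a carbonic anhydrase abundant in fat (0.32), *Cyp2e1*, a cytochrome P450 (0.50), *Adrb3*, the beta-3 adrenergic receptor of adipocytes (0.57), *Timp4* (0.60) and *Pck1*, an enzyme of glycerol synthesis (0.62). None followed *Cfd* to its lowest values: *Car3* reached -3.88 and *Cfd* -4.69. For *Adipoq* the differences were smaller, with *Slc2a4* at 0.12, *Art3* and *Atp6v0e2* at 0.13, *D430019H16Rik* at 0.16 and the transcript TC1733495 at 0.17. *Retn* was nearest to TC1733495 and *Ces1d*, a lipid esterase (both 0.18, over 9 mice), followed by the lipid droplet gene *Plin4*, *Slc2a4* and *Pck1* (0.21 to 0.23). *Rbp4* was nearest to *Amy1* (0.20), then TC1733495, *Plin4*, *Atp6v0e2* and *Ces1d* (0.21 to 0.23), so the lists of *Adipoq*, *Retn* and *Rbp4* share members.

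*Lep* had a list of its own. Among its nearest genes were *Aldh1l1*, an enzyme of folate metabolism, at 0.13, *Mosc1* (now *Mtarc1*) and *Sod3*, the extracellular superoxide dismutase, at 0.15, and *Wscd2* at 0.16. *Rarres2* had the smallest differences of all, at 0.09 to 0.10, with *BC020535*, *Plcb4*, *Cyp2j9*, *Mlxipl*, the carbohydrate-responsive transcription factor ChREBP, and *Fgfrl1*. The differences were not scaled to a gene's spread, and the SD was 0.90 for *Rarres2* against 2.51 for *Cfd*. They therefore do not rank the adipokines by how closely other genes follow them. *Apln* was nearest to *O3far1* (now *Ffar4*), the receptor for long chain fatty acids, at 0.13, a probe without a gene symbol at 0.13, and *Pygl*, *Grhl1* and *Irs1*, the insulin receptor substrate, each at 0.14. For *Nampt*, with an SD under 0.3, no such list was made.

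Relations between the genes were measured within the 6 mice 1, 2, 3, 8, 9 and 10, since the 2 sets of mice would give any pair that parted them a high r over all 10. Of the 28 pairs, 15 had 6 mice with values, and 13 pairs, those with *Retn* or *Nampt*, had 5 or fewer and no r. No pair passed the threshold after Benjamini-Hochberg adjustment over the 15 pairs, and 5 had an unadjusted p under 0.05 in the exact two-sided permutation test, whose smallest p is 0.00278. *Cfd* and *Apln* had the highest r, 0.973 (exact permutation p = 0.00417, adjusted p = 0.0625, rho = 0.943 with an exact permutation p of 0.0167, adjusted 0.250), and 0.931 without the 2 mice farthest from the median of *Cfd*. *Cfd* and *Adipoq* had an r of 0.884 (exact permutation p = 0.0375, adjusted 0.132, rho = 0.771 with an exact p of 0.103, adjusted 0.308), and 0.975 without the 2 farthest mice. *Cfd* and *Rbp4* had an r of 0.854 (exact permutation p = 0.0347, adjusted 0.132, rho = 0.886 with an exact p of 0.0333, adjusted 0.250), and 0.777 without the 2 farthest mice.

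*Rbp4* had an r of 0.848 with *Apln* (exact permutation p = 0.0347, adjusted 0.132, rho = 0.771 with an exact p of 0.103, adjusted 0.308), and 0.639 without the 2 farthest mice. Its r with *Adipoq* was 0.843 (exact permutation p = 0.0472, adjusted 0.132, rho = 0.771 with an exact p of 0.103, adjusted 0.308), and fell to 0.439 without the 2 farthest mice. With any 1 mouse left out it was 0.778 to 0.974. Without the 2 farthest, too few mice are left to tell what this r rests on. *Lep* had an r below 0 with 4 of the other 5 genes, down to -0.383 with *Rbp4* (exact permutation p = 0.464, adjusted 0.667, rho = -0.314 with an exact p of 0.564, adjusted 0.760), and its r with *Rarres2* was 0.487 (exact permutation p = 0.319, adjusted 0.574, rho = 0.6 with an exact p of 0.242, adjusted 0.518). The *Lep* and *Rbp4* value turned to 0.255 without the 2 farthest mice. The direction for *Lep* also depended on the processing: all 4 of these r were above 0 with median centring of the arrays (0.543 to 0.864, over 6 or 7 mice) and with the deposited normalized values (0.0224 to 0.126). The count of pairs past the threshold depended on the processing: it was 7 when each array's log ratios were centred on their median in place of loess, and 4 of 21 pairs when the uneven *Retn* spot of mouse 9 was kept. In the latter case *Cfd* and *Apln* passed, and *Cfd* and *Retn* had an r of 0.946 (exact permutation p = 0.00417, adjusted 0.0437), *Retn* and *Rbp4* 0.961 (exact p = 0.00833, adjusted 0.0437) and *Retn* and *Apln* 0.934 (exact p = 0.00833, adjusted 0.0437). A slide holds at most 2 of these 6 mice, too few for an r within slides.

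The receptors and partners of these adipokines were taken from a list of 23 genes, of which 19 were expressed. By the Pitman-Morgan test 16 of the 19 varied more in Cy5 than in Cy3 (84.2%, against the 59.7% of all probes), with a median SD of the log2 ratio of 0.39, against 0.18 over all probes tested and 1.26 for the adipokines. Mice 4 to 7 were entirely below the others for 7 of the 19 and entirely above for 5, where 21.3% and 17.9% of all expressed probes were so. The widest spreads belonged to the receptors of the complement fragments that form downstream of adipsin. *C5ar1* ran from -1.73 to 1.32 on the log2 ratio, with mice 4 to 7 at 1.15 to 1.32 and the others at -0.17 or lower. *C3ar1* was at 1.01 to 1.18 in mice 4 to 7 and at -1.37 to 0.15 in the others. These 2 genes were thus high in the mice with low *Cfd*, as the macrophage markers were.

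*Cfb*, the complement factor that adipsin cuts, was at -1.43 to -0.57 in mice 4 to 7 and at -0.07 to 0.49 in the others. The adiponectin receptor gene *Adipor2* was at -1.69 to -1.06 against -0.48 to 0.27 (9 mice), and *Gstk1*, which helps adiponectin chains assemble, at -1.30 to -0.68 against -0.03 to 0.52. *Lepr*, *Cmklr1* and *Nmnat1*, the receptor of leptin, a receptor of chemerin and an enzyme after Nampt, did not pass (Pitman-Morgan adjusted p = 0.441, 0.102 and 0.101). The other chemerin receptor genes of the list, *Gpr1* and *Ccrl2*, passed the same test (adjusted p = 0.000227 and 0.0126). *Gpr1* was at -0.79 to -0.31 in mice 4 to 7 against -0.04 to 0.47, and for *Ccrl2* the sets overlapped. *Stra6*, *Ttr*, *Masp1* and *Nmnat2* were not above background on enough arrays.

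Of 17 transcription factors and cofactors of adipocytes, all expressed, 15 passed the same test (88.2%, against the 59.7% of all probes), with a median SD of 0.45, and *Hif1a* and *Ppargc1b* did not (adjusted p = 0.127 and 0.12). For 13 of them mice 4 to 7 were entirely below the others and for none entirely above, against 21.3% and 17.9% of all expressed probes. The widest was *Klf15*, a factor of lipid and amino acid metabolism, at -1.55 to -0.83 in mice 4 to 7 against 0.42 to 1.04. *Zfp423* and *Ebf1*, factors of adipocyte commitment and differentiation, were at -1.54 to -0.83 against 0.05 to 0.52 and at -1.45 to -1.08 against -0.33 to 0.46. *Foxo1*, a target of insulin signalling, was at -1.21 to -0.68 against 0.10 to 0.63. *Epas1*, the gene of a hypoxia-inducible factor, was at -1.25 to -0.92 against -0.14 to 0.23, while *Hif1a*, which did not pass, ran over all mice from -0.54 to -0.07.

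Of 55 other genes for secreted proteins of fat, 46 were expressed and 45 tested, and 40 of these passed (88.9%, against 59.7% of all probes), with a median SD of 0.54. Of the 46, 17 had mice 4 to 7 entirely below the others, which 21.3% of all expressed probes had, and 10 entirely above, a share near the 17.9% of all. *Retnla*, a relative of resistin, had the widest spread, at -3.54 to -2.70 against -1.53 to 1.08 (SD 1.83, 9 mice), and *Sfrp5*, an inhibitor of Wnt signalling, was at -2.36 to -1.52 against -0.03 to 0.70. *Gdf15*, a stress hormone of the TGF-beta family, and *Lgals3*, a lectin of macrophages, went the other way, at 1.00 to 1.55 against -1.75 to -0.01 and at 1.11 to 1.22 against -1.81 to -0.13. *Lgals3* was near the threshold (Pitman-Morgan adjusted p = 0.0479). *Cck*, the gene of a gut and brain hormone, did not follow the 2 sets: it was highest in mouse 2 (1.65) and lowest in mouse 10 (-2.74), with mice 4 to 7 at -2.04 to 0.00 and the others at -2.74 to 1.65.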

How the data were processed

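The 10 arrays were analysed as 1 group, as labelled. Per the file headers, the scanner files were written by Agilent Feature Extraction 10.7.3.1, and the intensity values the authors deposited give, for both dyes and without normalization, how bright a spot and its surroundings were. The log10 ratio in the same deposited files is that of the software's processed signals. The authors also deposited a table of log2 values for 30733 spots (every column has a median of 8.52). Its values tracked the log2 median Cy5 brightness of the spots (r of 0.994 to 0.999 over spots), while its normalization and centring are not given in the sources used here.

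Mean signals were corrected with normexp on the local background (offset 50) and normalized by loess within arrays with limma 3.58.1 in R 4.3.3, and channel values by Aquantile between arrays. Control spots and those with an outlier mark of the software were dropped, and spots of a probe were averaged (55681 probes). For *Retn* the brighter probe represents the gene. A probe was expressed if at least 5 arrays had Cy5 well above background, and the variance test used probes that were so in both dyes. Other steps used Python 3.11.15. The variance and slide tests were checked on simulated data. Thresholds were an adjusted p under 0.05, over all probes or, for pairs, over the pairs. Where a gene's mice fell into separate clusters (its widest gap at least 0.4 of its range, or parting the mice as the first component does), r was taken within the cluster of at least 6 mice.

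The adipokine genes and all lists were chosen with earlier results of these data known. Named are all adipokine probes, of each other list the 5 genes with the largest SD (for receptors, partners and factors, among those that passed), and the 5 nearest genes of each adipokine with an SD of at least 0.3. Some genes that these rules select are not reported here. Other genes named with values were chosen after these were seen. The number of arrays limits the precision.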

Additional observations from a re-analysis of the deposited data

Results flagged for a closer look

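Of 156 genes and probes described here, 7 (4.49%) had a mouse far from the other mice, by a gap to its neighbour of more than 0.466 of the whole range over 10 mice, and chance gives about 1 in 20. No adipokine was among them. In mouse 2, *Prm2* was highest at a log2 ratio of -0.79, against -1.93 in the next mouse (a gap of 0.771 of the range). *Prm1*, the other sperm protamine, was highest there too, at -1.37 against -2.93 (0.570). *Lcn2*, an iron-binding lipocalin, was at 1.54 against 0.28 (0.511), and *Bmp7*, a growth factor, at 1.31 against 0.03 (0.544), both again in mouse 2. *Ppargc1b* was lowest in mouse 2, at -0.26 against 0.01 (0.485). *Retnlg*, a relative of resistin found in neutrophils, was highest in mouse 8, at 0.85 against -0.06 (0.670). *Cd3e*, a T cell gene, was highest in mouse 3, at 0.79 against 0.36 (0.470).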

How the results depend on the processing

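Of the variance calls of the 8 genes, those of *Cfd*, *Adipoq*, *Lep*, *Retn* and *Rbp4* held under every alternative that could be run for them. The log2 ratio of the SDs of *Nampt* was 2.35 (adjusted p = 0.000153 by the Pitman-Morgan test), and 1.22 with median centring (0.064) and 0.67 with no normalization between arrays (0.202). That of *Rarres2* was 2.65, and 1.41 with no normalization between arrays (0.0556) and 0.56 with the scanner's processing (0.377). That of *Apln* was 2.82, and 1.18 with the scanner's processing (0.0902). The cause was not tested. The count of all probes called was 15008, and 7334 with the scanner's processing and 4702 with no normalization between arrays. With probes required on all 10 arrays, or with the slide as a block, *Retn* and *Nampt* could not be tested, since each lacks a mouse. The count of pairs past the threshold was 0 of 15, 1 without subtracting the background, 7 with median centring and 4 with the uneven *Retn* spot of mouse 9 kept, a setting added after the data had been seen. Mice 4 to 7 do not enter these r, so leaving one of them out says nothing about the count (0 each time). Leaving out any other mouse, or the 2 farthest mice, left too few for a test. With the slide as a block it was 0, but 5 slides cannot give a p under 0.0625. Median centring moved the median over expressed probes of the mean log2 ratio from 0.00 to 0.32. It moved the mean of *Nampt* from 0.31 to 0.84, and the means of *Adipoq*, *Lep* and *Rarres2*, -0.68, -0.60 and -0.33, to 0.07, 0.02 and 0.38. The latter 3 shifts were less than the SD over mice, and that of *Nampt* was more. No adipokine probe had a slide call by limma's moderated F test under any alternative. Of all probes, 935 to 2723 had an unadjusted p under 0.05 there, and with 2 arrays on a slide this test could miss a slide effect. No paired analysis was possible because the labels give 1 group.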
